A study of Mus musculus with 464 samples.

Results

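The genes described here are 9 regulators of midbrain and hindbrain patterning, Otx2, Gbx2, Egr2, En1, En2, Pax2, Pax5, Pax8 and Fgf8. They were taken by name from a single-cell expression table of 21973 genes, in which all 9 have a row. All cells belong to 1 treated group, RA_D4, with no untreated cells beside it. They came from R1, an established mouse embryonic stem cell line kept before differentiation in medium with LIF (1000 U/ml), a cytokine that holds such cells undifferentiated, and 15% serum replacement. Hanging drops gave embryoid bodies over 48 hours, and retinoic acid was then given for 4 days at what the labels state as 0.5 mM. Cells were isolated on the Fluidigm C1 platform and read over full-length cDNA with SMART-Seq V4 chemistry and Nextera XT libraries. The series was made to test a method that clusters single-cell expression and chromatin data together, and the chromatin data were not analysed here.

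In the embryo, the neural plate is divided from front to back by transcription factors that repress each other. Otx2 is a homeodomain factor of the forebrain and midbrain, Gbx2 is one of the anterior hindbrain, and the isthmic organizer forms at the border between them, where the secreted signal Fgf8 and the factors En1, En2, Pax2, Pax5 and Pax8 are expressed. Egr2, also called Krox20, is a zinc finger factor that sets up segments of the hindbrain and is an immediate early gene in other cells. Several of these genes are used again later: En1 marks a class of ventral inhibitory interneurons, and Pax2, Pax5 and Pax8 are expressed in inhibitory interneurons of the hindbrain and spinal cord. Retinoic acid itself gives neural cells a posterior character. In the RefSeq annotation of build GRCm38.p6, Gbx2 lies at chr1:89927962-89931176 and En1 at chr1:120602487-120607991, Pax8 at chr2:24420551-24475599, Pax5 at chr4:44524748-44710694, En2 at chr5:28165696-28172190, Egr2 at chr10:67534469-67542188, Otx2 at chr14:48656781-48667644, and Pax2 (chr19:44746601-44838269) and Fgf8 (chr19:45736491-45742941) on 1 chromosome.

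The filter of at least 2000 genes above 0 and at most 20% mitochondrial share kept all columns but 6. A kept column, called a cell below, had a median of 6742.5 genes above 0 (range 2059 to 10256), and sequencing depth is unknown because TPM, a length-corrected share of a cell's transcripts, keeps no depth. The columns fall into 2 sets of nearly equal size by a lane tag in their names, and 55 columns of set 1 have a near copy in set 2 (correlation of log2 values 0.946 to 0.990, against at most 0.917 for any other pair). Distinct cells, below, are the kept columns without the set 2 column of each pair. No separate cultures are named, so the cells are 1 sample: there is no test and no p-value, and the exact 95% intervals of shares cover counting error only. Unless distinct cells are named, both columns of a near-copy pair are counted. Intervals and calls over all kept columns therefore treat apparent repeats as separate cells, which makes the intervals too narrow. A gene was called detected at 1 TPM or more, and higher or lower by a rule of size, which asks for means at least 2-fold apart in TPM, at least 10 detecting cells among those compared, and shares of detecting cells whose 95% intervals stay apart.

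Gbx2 was the most widely detected of the 9 genes and Fgf8 the least. Gbx2 was detected in 120 cells (26.2%, 95% interval 22.2 to 30.5), and among these cells its level had a median of 22.8 TPM and a highest value of 539 TPM. Pax8 was detected in 76 cells (16.6%, 13.3 to 20.3), with a median of 25.7 TPM and a highest value of 460 TPM. Of the detecting cells, 90 reached 10 TPM for Gbx2 and 55 for Pax8. Pax2 was found in nearly as many cells as Pax8 but at a lower level, in 71 cells (15.5%, 12.3 to 19.1) with a median of 3.53 TPM and a highest value of 37.2 TPM. Egr2 was detected in 66 cells (14.4%, 11.3 to 17.97) with a median of 4.27 TPM and a highest value of 59.4 TPM. Pax5 was detected in 45 cells (9.83%, 7.26 to 12.9) with a median of 4.01 TPM and a highest value of 74.2 TPM. En1 was seen in fewer cells, at a median between those of Pax5 and Gbx2. It was detected in 29 cells (6.33%, 4.28 to 8.97), with a median of 9.05 TPM and a highest value of 57.7 TPM.

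En2, Otx2 and Fgf8 were rare. En2 was detected in 13 cells (2.84%, 1.52 to 4.80), of which 1 reached 10 TPM. Otx2 was detected in 6 cells (1.31%, 0.482 to 2.83), at 61.9, 58.7, 13.2, 11.7, 3.63 and 1.93 TPM. Fgf8 was detected in 1 cell (0.218%, upper limit 1.21%), at 28.7 TPM. In the order of detected shares, Gbx2 stood apart from Pax8, the next gene, by intervals that do not overlap, while every other pair of neighbours in that order had overlapping intervals. Over all kept cells the mean level of Gbx2 was 9.30 TPM and that of Pax8 9.10 TPM, above the means of 69.4% and 69.05% of the genes in the table. The other 7 genes had means between 0.0626 TPM for Fgf8 and 1.40 TPM for Egr2.

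Detection shares were close in the 2 column sets. The sets are not independent, since 55 columns of set 1 have a near copy in set 2. Part of this closeness is therefore built in, and a call in each set, here and below, is not separate support. Gbx2 was detected in 25% of set 1 and 27.4% of set 2, Pax8 in 16.5% and 16.7%, Pax2 in 14.3% and 16.7%, Egr2 in 12.9% and 15.8%, Pax5 in 10.3% and 9.40%, and En1 in 4.91% and 7.69%. The near-copy pairs show how often a call of detection was repeated. Gbx2 was detected in both columns of 15 pairs and in only 1 column of 1 pair, and Egr2 in both of 12 and in only 1 of 1. Pax2 was less repeatable, with both columns in 8 pairs and only 1 column in 6 pairs, and Pax8 gave 7 and 6. Where Pax8 was found in 1 column only, its median was 2.30 TPM and its highest value 16.3 TPM. Where Pax8 was found in both columns, the higher of the 2 values had a median of 47.1 TPM. Over all genes detected in at least 10 cells, 91.4% of pairs with any detection had it in both columns. En1 was detected in both columns of 1 pair and in only 1 column of 2 pairs, at no more than 2.94 TPM there. In these pairs a call of Pax2 or Pax8 was thus less repeatable than one of Gbx2 or Egr2, and En1 had too few pairs to judge. What the near copies are is not stated, so their agreement does not show that an undetected gene is absent from a cell.

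The regional neighbours of these genes were unevenly represented. In the list of 14 hindbrain segmentation genes, 12 were detected in at least 10% of kept cells, among them Hoxb2 in 87.99%, Hoxa2 in 84.9% and Epha4, an ephrin receptor of hindbrain segments, in 56.99%. None of the 10 genes in the forebrain and midbrain list, 0 of 10, reached that share. Lhx2, a factor of forebrain and eye, led that list with 6.55%. Of the 8 genes in the isthmic organizer list 5 reached it, led by Sp8, a zinc finger factor, in 46.9%, but the secreted isthmic signals did so less: Wnt1 was detected in 6.55% of cells, Fgf17 in 4 cells and Fgf18 in 10.9%. Among 7 posterior genes, Hoxb9 (69.4%) and Hoxb8 (68.3%) passed that share, and T and Cdx2 were detected in 0 cells, which allows a share of up to 0.802%. For comparison, 11131 of the 21973 genes reached 10% of cells.

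Cells were placed in states by counts of markers detected at 1 TPM. Endoderm state took at least 4 of 8 markers such as Gata4 and Sox17 and held 110 cells. Of the remaining cells, 120 distinct cells and 8 near copies of them were in neuron state, with at least 7 of 10 neuron markers such as Tubb3 and Stmn2. Another 120 cells, near copies included, were in progenitor state, with at most 3 neuron markers and at least 5 of 10 progenitor markers such as Sox2 and Pax6. An intermediate state with 4 to 6 neuron markers held 75 cells, and 25 cells met none of these. The states are ranges of a count rather than cell types. Outside the endoderm state 17 cells had exactly 7 neuron markers and 27 had 6, so many cells lie near the line. Neuron-state cells also had more genes above 0, a median of 7088.5, against 6305.5 in progenitor-state cells, and the part of this gap in the values below was not tested.

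Pax8, Pax2, Pax5 and En1 were higher in neuron-state than in progenitor-state cells, and Gbx2 and Egr2 were not called. Of the 9 genes, 6 were detected in enough cells of the 2 states to enter the rule, of which 4 were higher and 0 lower, where the rule called 8.82% of 12376 genes higher and 1.65% lower. Pax8 was detected in 39.1% of neuron-state cells (30.6 to 48.1), against 5.83% of progenitor-state cells (2.38 to 11.6), and its mean was 28.6 TPM against 0.712 TPM, a 40.2-fold difference. Pax2 was detected in 35.2% of neuron-state cells (26.9 to 44.1) and 4.17% of progenitor-state cells (1.37 to 9.46), with means of 2.46 TPM and 0.211 TPM, a fold of 11.7. For both genes the few detecting progenitor-state cells were mostly low: the 7 with Pax8 had a median of 2.44 TPM, and the 5 with Pax2 had a median of 1.81 TPM.

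Pax5 and En1 were detected in no progenitor-state cell. Pax5 was detected in 26.6% of neuron-state cells (19.1 to 35.1) at a mean of 3.18 TPM over the state, against 0 of 120 progenitor-state cells, which allows a share of up to 3.03%. En1 was detected in 15.6% of neuron-state cells (9.81 to 23.1) at a mean of 3.03 TPM over the state, against 0 of 120 progenitor-state cells with the same limit. In set 1 alone, with 13.8% of neuron-state cells, En1 was not called. Pax8, Pax2 and Pax5 were called in each set alone, and all 4 genes were called in distinct cells. With a difference of mean log2(TPM + 1) of at least 1 in place of the 2-fold mean, Pax8 alone was called, at 1.90, while Pax5 was at 0.89, Pax2 at 0.88 and En1 at 0.61. With detection limited to the 4000 highest genes of a cell, Pax8 alone was called too.

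Gbx2 and Egr2 were spread over both states. The share with Gbx2 was 34.4% in neuron-state cells (26.2 to 43.3) and 26.7% in progenitor-state cells (19.01 to 35.5). Its mean was 18.5 TPM in neuron-state and 7.02 TPM in progenitor-state cells, but the intervals of the shares overlap. Egr2 was detected in 14.8% of neuron-state cells (9.18 to 22.2) and 16.7% of progenitor-state cells (10.5 to 24.6), with means of 1.04 TPM and 1.82 TPM. Otx2 was detected in 4 neuron-state cells and 0 progenitor-state cells, and the single Fgf8 cell was in progenitor state.

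**Figure D1:**
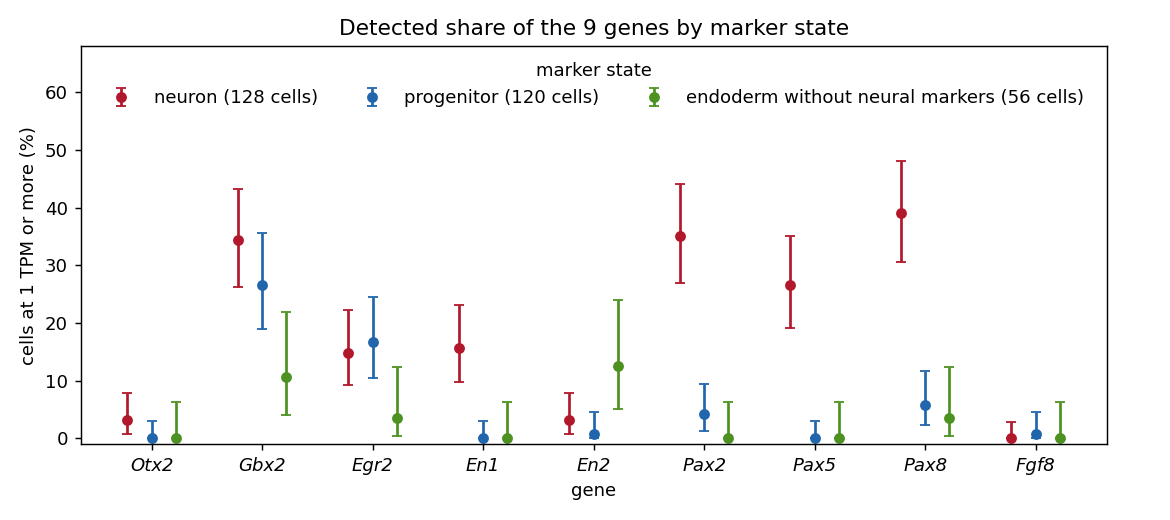
Share of cells with each gene at 1 TPM or more (y axis, percent) in neuron-state cells, progenitor-state cells and endoderm-state cells without neural markers, with exact 95% intervals. Pax2, Pax5, Pax8 and En1 stand higher in neuron-state than in progenitor-state cells, and En2 is at 12.5% (7 of 56 cells) in endoderm-state cells without neural markers.

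**Figure D2:**
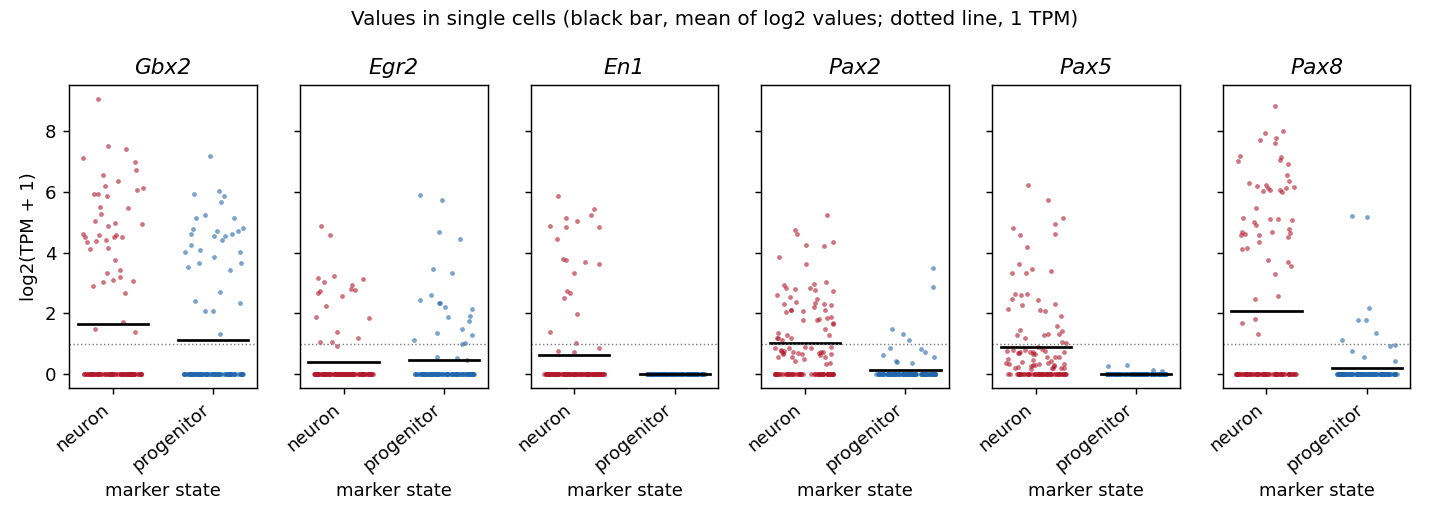
Values of 6 genes on the log2(TPM + 1) scale (y axis) in each neuron-state and progenitor-state cell, 1 point a cell, with the mean of the log2 values as a black bar and 1 TPM as a dotted line. Detecting cells of Gbx2 and Pax8 reach far higher values than those of Egr2, Pax2 and Pax5, and no progenitor-state cell passes 1 TPM for En1 or Pax5.

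With the cells ordered by the number of neuron markers detected, Pax2 and Pax8 were first detected with 2 to 3 markers and Pax5 and En1 with 4 to 6. Pax2 was detected in 0% of cells with 0 to 1 neuron markers, 6.59% with 2 to 3, 13.2% with 4 to 6, 43.2% with 7 to 8 and 31.9% with 9 to 10. Its highest share therefore came in the bin before the last, although the intervals of the last 2 bins overlap (27.1 to 60.5 and 22.5 to 42.5). Pax8 was low up to 6 markers, at 0%, 7.69% and 5.49%, and then stood at 35.1% and 40.7%. Pax5 reached 0%, 0%, 8.79%, 18.9% and 29.7% in the same order, with overlapping intervals in all neighbouring bins. En1 was at 0%, 0%, 3.30%, 5.41% and 19.8%. Its intervals also overlapped in all neighbouring bins, with 0.661 to 18.2 and 12.2 to 29.4 in the last 2. The median number of genes above 0 also climbed over these bins, at 5689, 6388, 6833, 6928 and 7169.

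Between the lowest and the highest bin, intervals stayed apart for Pax2, Pax8, Pax5 and En1 and overlapped for Gbx2 and Egr2. Over the same bins Gbx2 was detected in 13.2%, 29.7%, 20.9%, 32.4% and 35.2% of cells. Its intervals overlapped in all neighbouring bins, and were 4.41 to 28.1 in the lowest and 25.4 to 45.9 in the highest. Egr2 was detected in 10.5%, 18.7%, 18.7%, 27.03% and 9.89%, also with overlapping intervals.

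**Figure D3:**
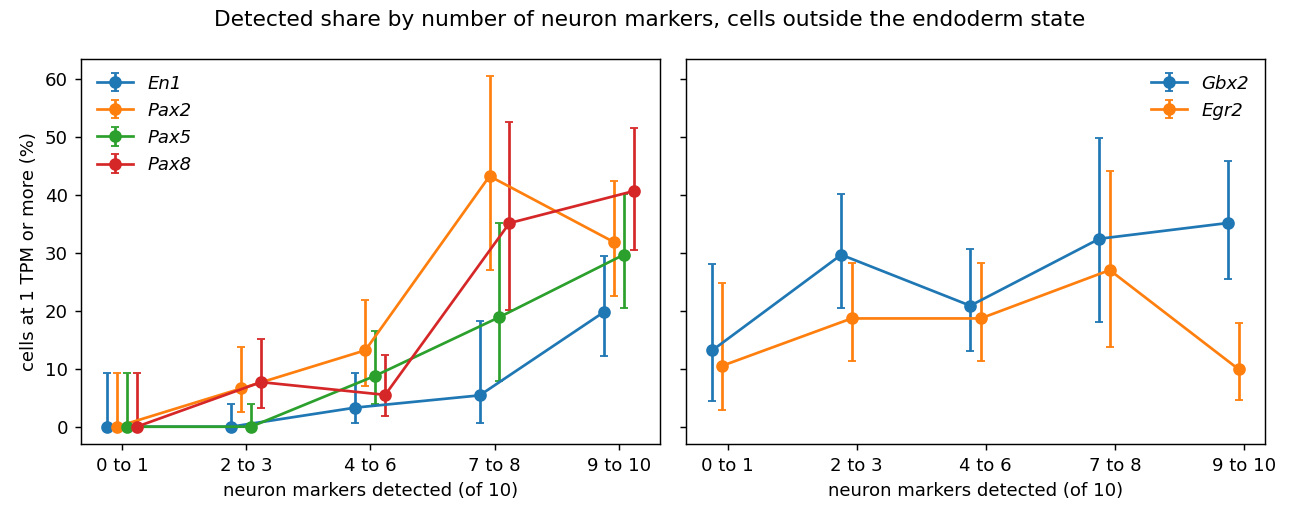
Share of cells with each gene at 1 TPM or more (y axis, percent) by the number of neuron markers detected (x axis), in cells outside the endoderm state, with exact 95% intervals. En1, Pax2, Pax5 and Pax8 are at 0% in the lowest bin and at 19.8% to 40.7% in the highest, while Gbx2 and Egr2 are present throughout.

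Most cells carried none or 1 of the 9 genes. Of the kept cells, 46.7% had none and 28.6% had 1, while 67 cells had 2, 26 had 3, 16 had 4 and 4 had 5. At least 2 were detected in 24.7% of all kept cells, in 53.9% of neuron-state cells and in 8.33% of progenitor-state cells.

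Each of En1, Pax2, Pax5 and Pax8 was found more often in cells with one of the others than in cells without it, and the same held for En1 with Gbx2. Of the cells outside the endoderm state, 57 still had just 1 of the 4 genes and 53 had 2 or more. Outside the endoderm state, 7 of the 36 pairs of genes had shares whose intervals do not overlap, all with more joint detection. These were the 6 pairs among En1, Pax2, Pax5 and Pax8, and the pair En1 and Gbx2. Pax8 was detected in 29 of 63 Pax2-detected cells (46.03%, 33.4 to 59.1), against 33 cells without Pax2 (11.6%, 8.11 to 15.9). Pax5 was detected in 39.7% of Pax2-detected cells and in 5.96% of cells without Pax2. Gbx2 was detected in 19 of 23 En1-detected cells (82.6%, 61.2 to 95.05), against 76 cells without En1 (23.4%, 18.9 to 28.4). In set 1 it was in 8 of 8 En1-detected cells and 21.4% of the others, and in set 2 in 11 of 15 and 25.5%. The reverse share was lower, since Gbx2 is the more common gene: En1 was detected in 20% of Gbx2-detected cells and in 1.58% of cells without Gbx2.

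Part of this joint detection goes with the neuron state. Pax2-detected cells had a median of 8 neuron markers, against 4 in cells without Pax2, and En1-detected cells had 10, against 5. Within neuron-state cells alone, 4 pairs still had intervals apart: En1 and Gbx2, En1 and Pax5, Pax2 and Pax5, and Pax2 and Pax8. In distinct neuron-state cells En1 and Pax5 no longer stood apart, while the other 3 pairs did. By the rule of size in the neuron-state cells of 1 set, En1 with Gbx2 and Pax2 with Pax8 were called in set 1 alone, Pax2 with Pax5 in set 2 alone, and En1 with Pax5 in neither. Over both sets, Pax8 was detected in 28 of 45 Pax2-detected cells (62.2%, 46.5 to 76.2), against 22 of 83 without Pax2 (26.5%, 17.4 to 37.3). Gbx2 was detected in 17 of 20 En1-detected neuron-state cells (85%, 62.1 to 96.8), against 27 cells without En1 (25%, 17.2 to 34.3). In progenitor-state cells, where the 4 genes are rare, 0 pairs had intervals apart. The most frequent combination in neuron-state cells was Pax2 with Pax8 and neither En1 nor Pax5, in 14 cells, and 4 cells had all 4 genes.

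No pair with Egr2 or Otx2 had intervals apart, but Otx2 was in too few cells to be placed. Outside the endoderm state, the Otx2-detected cells at 61.9, 13.2 and 11.7 TPM also had Pax2, at 3.64, 3.29 and 3.15 TPM. Those at 13.2 and 11.7 TPM had Pax5 as well, while those at 58.7 and 3.63 TPM had neither. Egr2 was detected in 2 of 42 Pax5-detected cells (4.76%, 0.582 to 16.2), against 55 cells without Pax5 (17.97%, 13.8 to 22.7), with overlapping intervals. Otx2 and Gbx2, which repress each other at the isthmus, were detected together in 1 cell, but Otx2 is too rare for this to show whether they avoid each other: Gbx2 was detected in 1 of 5 Otx2-detected cells outside the endoderm state, with an interval of 0.505 to 71.6%.

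**Figure D4:**
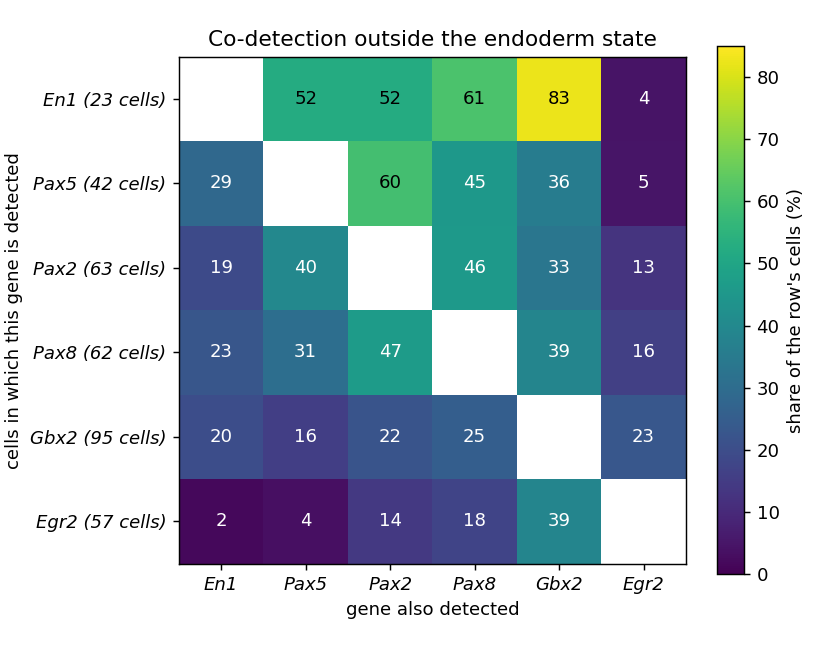
Share of the cells with the row gene in which the column gene was also detected (percent, printed in each square), in cells outside the endoderm state, with the number of cells per row gene. The highest share is that of Gbx2 in En1-detected cells, at 82.6%, and the En1 and Egr2 squares are among the lowest.

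The start regions of the 4 jointly detected genes are shown because their detection moves together. RefSeq on build GRCm38.p6 gives the 250 bases before the start site, 5′ to 3′ on the gene's strand, for 7 of the 9 genes (En2 and Fgf8 are named only). Capitals mark TAAT on either strand, the core that homeodomain factors such as En1, Gbx2 and Otx2 bind. They lie at chr1:120602237-120602486 (plus strand) for En1, chr19:44746351-44746600 (plus) for the first Pax2 start site, chr4:44710695-44710944 (minus) for Pax5 and chr2:24475600-24475849 (minus) for Pax8.
En1: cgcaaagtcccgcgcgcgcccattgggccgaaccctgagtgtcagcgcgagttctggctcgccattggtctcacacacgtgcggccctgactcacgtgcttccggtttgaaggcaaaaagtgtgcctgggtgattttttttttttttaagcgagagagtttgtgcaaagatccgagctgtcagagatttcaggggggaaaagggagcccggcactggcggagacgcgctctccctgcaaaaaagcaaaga
Pax2: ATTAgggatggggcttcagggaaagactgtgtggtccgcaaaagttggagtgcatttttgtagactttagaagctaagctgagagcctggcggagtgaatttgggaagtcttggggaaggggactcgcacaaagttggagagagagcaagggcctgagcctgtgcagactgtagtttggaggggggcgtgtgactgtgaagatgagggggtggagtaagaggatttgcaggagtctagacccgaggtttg
Pax5: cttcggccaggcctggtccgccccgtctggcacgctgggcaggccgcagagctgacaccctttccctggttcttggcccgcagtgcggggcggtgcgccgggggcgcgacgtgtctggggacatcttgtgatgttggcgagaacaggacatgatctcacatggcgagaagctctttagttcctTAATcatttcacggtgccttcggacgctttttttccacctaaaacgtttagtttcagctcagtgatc
Pax8: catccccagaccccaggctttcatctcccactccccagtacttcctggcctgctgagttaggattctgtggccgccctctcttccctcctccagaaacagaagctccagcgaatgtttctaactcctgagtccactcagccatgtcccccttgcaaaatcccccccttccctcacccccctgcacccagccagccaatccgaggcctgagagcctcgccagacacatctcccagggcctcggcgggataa
TAAT was present once in the Pax2 and Pax5 windows and absent from those of En1 and Pax8. Of the 16 windows of the 7 genes 9 hold it, near the 54.9% of 32851 such windows in the annotation. CAGCTG, an E-box bound by proneural factors, was in 2 of the 16 windows and in 13.001% of all windows. AGGTCA on either strand, the half-site of retinoic acid receptors, was in 0 of the 16 and in 14.02% of all windows. Windows of 1 gene can overlap. A match is a description of the letters in these windows only.

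Among cells outside the endoderm state, 6 or 7 of 11 tested genes of an inhibitory interneuron list were higher in cells with En1, Pax2, Pax5 or Pax8 than in cells without the gene. In progenitor-state cells alone, where at most 7 cells have any one of the 4, 0 list genes were higher. The list of 12 such genes holds Gad1 and Gad2, which encode the enzymes that make GABA, Slc6a5 and Slc32a1, which encode transporters of inhibitory transmitters, and factors of interneuron classes such as Lhx1, Lhx5 and Foxd3. Some of its factors are less specific: Evx1 is known from excitatory commissural neurons, Foxd3 also from neural crest, and Lhx1 and Lhx5 also from other neurons. In neuron-state against progenitor-state cells, 7 of the 11 list genes tested were higher and 0 lower. Outside the endoderm state, 7 of 11 were higher in Pax2-detected than in other cells, where the rule called 1.45% of 12932 genes higher and 0.874% lower. With Pax5 7 were higher (background 2.13% higher, 4.04% lower), with Pax8 7 (3.33% and 0.278%) and with En1 6 (3.05% and 0.595%). With Gbx2, 2 of 11 were higher (0.619% and 0.0387%), and with Egr2, 0 of 11 (0.58% and 0.0851%). None of these comparisons had a lower list gene, 0 of 11 in each. Prdm12, Prdm13, Foxp2 and Ptf1a, also in the list, were called in none of them. Slc32a1 was detected in 8 kept cells (5.47% of neuron-state cells) and was too rare to be tested.

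Since detecting cells also had more neuron markers, the same was computed within neuron-state cells. Of 10 list genes tested there, Pax2-detected cells had 3 higher (Gad2, Lhx5 and Lhx1), where the rule called 0.147% of 11591 genes higher and 0.336% lower. Gad2 was detected in 71.1% of Pax2-detected neuron-state cells (55.7 to 83.6) and in 32.5% of those without Pax2 (22.7 to 43.7), with means of 43.7 TPM and 6.60 TPM. Pax5-detected neuron-state cells had 4 higher (Evx1, Gad2, Lhx5 and Lhx1, background 0.147% higher, 1.13% lower). Lhx1 was detected in 34 of 34 Pax5-detected neuron-state cells, at a mean of 66.5 TPM, against 65 of 94 without Pax5, at 21.8 TPM. Evx1 was detected in 35.3% of Pax5-detected neuron-state cells (19.8 to 53.5) and in 8.51% of those without Pax5 (3.75 to 16.1). Pax8-detected neuron-state cells had 3 higher (Slc6a5, Lhx5 and Lhx1, background 0.397% higher, 0.0604% lower). Slc6a5 was detected in 46% of Pax8-detected neuron-state cells (31.8 to 60.7) and in 17.9% of those without Pax8 (10.2 to 28.3), a fold of 4.25 in mean TPM. Of these genes only Lhx5 with Pax2 was called in each column set alone, while all of them were called in distinct cells.

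En1 was tied most closely to Foxd3. Foxd3, a forkhead factor, was detected in 20 of 20 En1-detected neuron-state cells (83.2 to 100%), against 13 cells without En1 (12.04%, 6.57 to 19.7). Its mean was 19.9 TPM with En1 and 1.61 TPM without, a 12.4-fold difference that was called in each column set and in distinct cells. Gad2 was detected in 19 of 20 En1-detected neuron-state cells and in 40 cells without En1 (37.04%), and Gad1 in 14 of 20 and in 21 cells without En1 (19.4%). These 3 genes were the ones called of 10 tested, where the rule called 0.38% of genes higher and 0.0604% lower, and both Gad genes were called in set 2 but not in set 1. Gbx2-detected neuron-state cells shared the link to Foxd3, which was in 56.8% of them (41.03 to 71.7) and in 9.52% of those without Gbx2 (4.202 to 17.9). It was the single list gene called with Gbx2 in neuron-state cells (background 0.328% higher, 0.0345% lower), again in each set and in distinct cells. En1-detected neuron-state cells had a median of 7741.5 genes above 0, against 6984.5 without En1, and Gbx2-detected ones 7674.5, against 6821, and the part of these gaps in the result was not tested.

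In neuron-state cells that carried more of En1, Pax2, Pax5 and Pax8, the genes of the interneuron list that were counted were more widespread. Evx1, Prdm12, Prdm13, Foxp2 and Ptf1a of the same list were not counted in this way. This regroups cells and genes already compared above, so it is not separate evidence. Of the neuron-state cells, 51 had 0 of the 4 genes, 30 had 1, 26 had 2 and 21 had 3 or 4. Over these groups, from 0 to 3 or 4, Gad2 was detected in 15.7%, 50%, 65.4% and 90.5% of cells. Lhx5 was detected in 23.5%, 60%, 88.5% and 90.5%, and Lhx1 in 52.9%, 83.3%, 100% and 100%. Gad1 was detected in 13.7%, 20%, 34.6% and 61.9%, and the rare Slc32a1 in 1.96%, 3.33%, 3.85% and 19.05%. The median number of genes above 0 over the groups was 7116, 7157, 7420.5 and 6317, and its part in these shares was not tested.

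**Figure D5:**
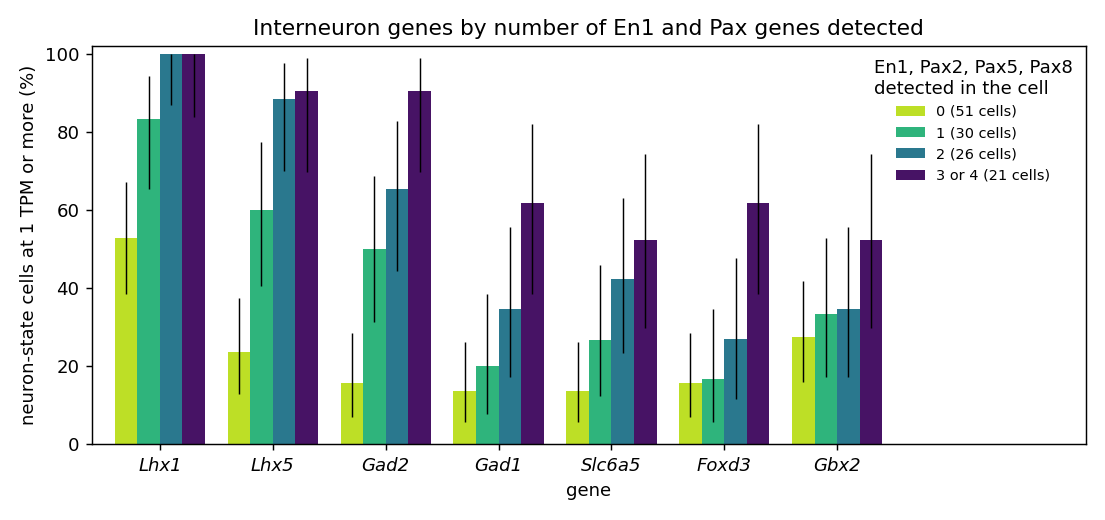
Share of neuron-state cells with each gene at 1 TPM or more (y axis, percent), for cells with 0, 1, 2, and 3 or 4 of En1, Pax2, Pax5 and Pax8 detected, with exact 95% intervals as lines. The genes are Lhx1, Lhx5, Gad2, Gad1, Slc6a5 and Foxd3 of the interneuron list, and Gbx2. Gad2 stands at 15.7% in cells with 0 of the genes and at 90.5% in cells with 3 or 4, whereas the bars of Gbx2 overlap in their intervals.

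In the regional lists, Hoxb1 and Fgf18 were called with Pax8. Outside the endoderm state, Hoxb1, a hindbrain segment gene, was detected in 45.2% of Pax8-detected cells (32.5 to 58.3) and in 15.7% of those without Pax8 (11.7 to 20.5), with means of 12.4 TPM and 2.29 TPM, a fold of 5.40. Fgf18, a secreted FGF of the isthmus, was detected in 35.5% of Pax8-detected cells and in 7.34% of those without, a fold of 3.46. Both were called in each column set. Within neuron-state cells both were called again, at 3.24-fold and 2.50-fold, pooled and in distinct cells but in neither set alone. Outside the endoderm state this was 1 of 14 segmentation genes and 1 of 7 isthmic genes tested (background 3.33% higher). Within neuron-state cells it was 1 of 11 and 1 of 6 (background 0.397% higher). A single call in so short a list does not set the list apart from other genes. Outside the endoderm state Hoxb1 was also called with Pax5, again 1 of 14 (background 2.13% higher), but not within neuron-state cells.

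In Egr2-detected cells some immediate early genes were called higher, and no hindbrain segmentation gene was called. Outside the endoderm state 3 of 7 immediate early genes were higher in Egr2-detected cells, where the rule called 0.58% of genes higher and 0.0851% lower. Of the hindbrain segmentation genes 0 of 14 were called, which is near that background and does not show that these genes were alike. Egr1, a close relative of Egr2 that is induced by growth factor signals, was detected in 51 of 57 Egr2-detected cells (89.5%, 78.5 to 96.04) and in 45.7% of cells without Egr2 (39.9 to 51.6). Its mean was 29.96 TPM with Egr2 and 9.18 TPM without, a 3.26-fold difference called in each set and in distinct cells. Junb, which encodes a subunit of the AP-1 factor, was 2.41-fold higher, called in set 2 and in distinct cells but not in set 1. Fos, of the same factor, was 2.001-fold higher, at the line of the rule, and was not called in distinct cells or either set. Hoxb1 was detected in 31.6% of Egr2-detected cells (19.9 to 45.2) and 18.9% of others (14.6 to 23.9), with overlapping intervals.

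In neuron-state cells alone the same 3 immediate early genes were higher with Egr2 (background 1.1% higher and 0.121% lower of 11591 genes). Fos was detected in 19 of 19 Egr2-detected neuron-state cells and in 65 cells without Egr2 (59.6%), with means of 76.2 TPM and 23.1 TPM. Dusp6 and Spred1, feedback inhibitors of the ERK pathway, were also higher there, at 2.58-fold and 2.22-fold. Of the segmentation genes 0 of 11 were called, again near the background. The progenitor markers Rfx4 and Sox3 were higher as well, at 3.26-fold and 2.06-fold, and the neuron marker Nefm was lower, with means of 59.6 TPM with Egr2 and 144.5 TPM without. Rfx4, Sox3 and Nefm were not called in distinct cells, and Rfx4 and Sox3 were called in neither set alone. Egr2-detected neuron-state cells had a median of 8 neuron markers, against 10 without Egr2. Dusp6 itself averaged 32.4 TPM in neuron-state and 68.5 TPM in progenitor-state cells, a difference that was not called. All 5 genes of the immediate early and ERK feedback lists were called in distinct cells, but in set 1 alone only Egr1, Junb and Spred1 were, and in set 2 alone none. Egr2-detected cells had a median of 7717 genes above 0 in this state, against 6818 without Egr2, and the part of the markers and of this gap in the result was not tested.

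The 30-base stretches around the CArG boxes before Egr2 are shown because serum response factor, which drives many immediate early genes, binds this motif. They lie on the plus strand of GRCm38.p6 (RefSeq) at chr10:67537484-67537513 and chr10:67537787-67537816, and capitals mark the box.
Egr2 first box: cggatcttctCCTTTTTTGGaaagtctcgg
Egr2 second box: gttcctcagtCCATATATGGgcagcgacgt
A box lies within the 250 bases before 4 of the 5 Egr2 start sites in the annotation, of which 3 share the second box, and 1.47% of the 32851 windows hold a CArG box. Of the 7 immediate early genes listed 5 have a window, and 0 of these hold one.

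In the endoderm state, Pax5 and Pax2 were lower than in other cells, and no gene of the 9 was higher. Of 7 genes tested, 0 were higher (background 13.6% of 13756 genes) and 2 lower (background 9.97%). Pax5 was detected in 2.73% of endoderm-state cells (0.566 to 7.76) and 12.1% of other cells (8.84 to 15.96), and Pax2 in 7.27% (3.19 to 13.8) and 18.1% (14.2 to 22.6). The other cells include the neuron state, with Pax5 in 26.6% and Pax2 in 35.2% of cells. Progenitor-state cells had 0% and 4.17%, no higher than the endoderm state, so low shares of these 2 genes are not particular to it. Pax2 was called in neither set alone and not in distinct cells. Of the 110 endoderm-state cells, 50 also carried neural markers, and 56 had fewer than 5 progenitor and fewer than 4 neuron markers.

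The 56 endoderm-state cells without neural markers were compared with the cells outside the endoderm state as well. Of 7 genes tested, 1 was higher, En2, a count near the background of 11.6% of 13409 genes. The lower genes were 5 (Pax2, Pax5, Pax8, Egr2 and Gbx2, background 18.3%). Pax2, Pax5 and En1 were each detected in 0 of the 56 cells, which allows a share of up to 6.38%. Gbx2 was still detected in 6 of them (10.7%, 4.03 to 21.9), against 95 other cells (27.3%, 22.7 to 32.3). En2 was detected in 7 of the 56 cells (12.5%, 5.18 to 24.1), at 13.1, 3.74, 3.56, 3.38, 2.47, 2.13 and 1.38 TPM, against 5 other cells (1.44%, 0.468 to 3.32). Of the 13 En2-detected cells of all states, 7 were thus of this kind, and 6 of these 7 were under 5 TPM. The 7.25-fold difference was called in distinct cells and in neither set alone. Among the lower genes, Pax2 and Pax5 were called in distinct cells, while Pax8, Egr2 and Gbx2 were not. Progenitor-state cells alone were also low for Pax2 (4.17%), Pax5 (0%) and Pax8 (5.83%, against 3.57% in the 56 cells). Their shares were higher for Egr2 (16.7%, against 3.57%) and Gbx2 (26.7%). These cells had a median of 5982 genes above 0, against 6706.5 in other cells, and over all genes tested the median log2 fold was -0.35. The part of this in the lower shares was not tested.

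The genes whose values were most like each of the 9 were named by the Pearson correlation of log2(TPM + 1) over the distinct cells, for members detected in at least 20 of them. The correlation describes cells of 1 sample, which share 2 column sets and differ in the number of genes above 0. For Pax2 these were Lhx5 (0.61), Lhx1 (0.57) and Gad2 (0.57), and for Pax5 Gad2 (0.59), Lhx5 (0.54) and Adarb2 (0.54), which encodes an RNA-editing family protein. En1 was most like Foxd3 (0.71), then Gad2 (0.51) and Adarb2 (0.45). Pax8 was most like Lamp5 (0.62), Sst (0.60), the somatostatin gene, and Chgb (0.60), a gene of secretory granules. For Gbx2 the values were lower, with En1 at 0.39, Foxd3 at 0.37 and Cabp7 at 0.31, and for Egr2 lower still, with Egr1 at 0.28, Wnt4 at 0.27 and Boc at 0.26. Within the 120 distinct neuron-state cells, En1 and Foxd3 had 0.74, Gbx2 and En1 0.54, and Egr2 and Wnt4 0.02.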

How the data were processed

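Gene expression was measured in single cells of 1 group. Per the submitters' processing notes, reads were aligned and quantified with STAR and RSEM on mm10. Versions and annotation are not given in those notes. The unit of the values the authors deposited is not stated and was taken to be TPM, which RSEM gives: the sums per cell, 54.2% to 95.1% of the total that TPM assigns, never pass it. No column names its sample, and all samples share 1 group. Detection was 1 TPM or more, intervals are exact Clopper-Pearson 95% intervals, and the rule of size ran over all genes. It was tested on simulated data. Doublets were not called; the 5% of cells with most genes were left out as an alternative. Members, marker lists and the other gene lists were chosen with earlier results of these data known. Besides the 9 members, the genes named are list genes past the rule and the 3 most correlated genes per member. Others are named to show where a list stood, chosen after their values were seen. Alternatives changed the threshold, cells, state limits, scale and column set. Promoter windows came from RefSeq on GRCm38.p6, the build of mm10. Python 3.11.15, numpy 2.4.6 and scipy 1.17.1 were used.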

Additional observations from a re-analysis of the deposited data

How the results depend on the processing

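No paired analysis was possible because the labels give 1 group, and no replicate could be left out. No result reversed. The detected shares moved mainly with the threshold. For any value above 0 they were 18.1% for Egr2, 24.9% for Pax2 and 22.1% for Pax5. At 5 TPM they were 6.77% for Egr2, 3.93% for En1, 0.655% for En2, 5.68% for Pax2, 4.37% for Pax5 and 13.1% for Pax8. Counting only the 4000 highest genes of a cell, they were 0.437% for Otx2, 12.2% for Gbx2, 1.75% for Egr2, 1.97% for En1, 2.62% for Pax2, 2.40% for Pax5, 9.17% for Pax8 and 0% for En2 and Fgf8. In set 2 alone Fgf8 was at 0%. The share of cells with 2 or more of the genes was 32.5%, 13.1% and 4.59% under these 3 thresholds.

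In neuron-state against progenitor-state cells, 1 gene instead of 4 was higher with the 4000 highest genes and with a difference of mean log2(TPM + 1), which counts low genes less. In endoderm-state against other cells, 1 gene instead of 0 was higher without the 5% of cells with most genes, with markers at 5 TPM and in cells without neural markers. The count of lower genes, 2, became 0 at 5 TPM, with the 4000 highest genes, in set 2 and on the log2 scale, 1 in distinct cells, in set 1 and with stricter limits, and 5 in cells without neural markers. Pairs with intervals apart, 7, became 0 in progenitor-state and 4 in neuron-state cells, where the Pax8 share among Pax2-detected cells was 0% and 62.2%.

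List genes higher by detection of a member depended on the cells. For Pax2 they were 8, and 5 at 5 TPM and in each set, 0 in progenitor-state and 3 in neuron-state cells. For Gbx2 they were 3, and 1 in each set and in neuron-state cells. For Egr2 they were 4, and 2 for any value above 0, in distinct cells and in progenitor-state cells, and 1 at 5 TPM and in set 1. For En1 they were 8, and 5 in set 1, 0 in progenitor-state and 3 in neuron-state cells. For Pax5 they were 8, and 5 in set 1, 0 in progenitor-state and 4 in neuron-state cells. For Pax8 they were 10, and 0 in progenitor-state and 6 in neuron-state cells. Of the 18 most correlated genes, 7 were again named in set 1 and 8 in set 2 without paired columns. The causes of these changes were not tested. The neuron-state comparisons and those by En1, Pax5 and Pax8 detection, and the endoderm cells without neural markers, were chosen after seeing the data. Depth is unknown, so a gene not detected in a cell is not shown to be absent from it.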

Other observations

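Other list genes also differed between neuron-state and progenitor-state cells. Of the 6 kidney and otic genes tested, where Pax2 and Pax8 have known roles, 3 were higher in neuron-state cells, where the rule called 8.82% of all genes higher: Lhx1, which is already counted in the interneuron list, Eya1 and Gata3. Eya1, which encodes a transcriptional coactivator, was detected in 25% of neuron-state cells (17.8 to 33.4) and in 3.33% of progenitor-state cells (0.916 to 8.31), and it was called in each column set and in distinct cells. Gata3, a zinc finger factor, was called in distinct cells but in neither set alone. Fgf18 was detected in 27.3% of neuron-state cells (19.8 to 35.9) and 0.833% of progenitor-state cells (0.0211 to 4.56). The isthmic signal Wnt1 was detected in 7.03% of neuron-state cells and 6.67% of progenitor-state cells, and it was not called with any of the 6 genes compared by detection. Hoxc8, a posterior Hox gene, was detected in 13.7% of Gbx2-detected cells outside the endoderm state (7.49 to 22.3) and in 3.95% of cells without Gbx2 (1.91 to 7.15), a fold of 2.22, but it was not called in distinct cells or in either set.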
